A study of Homo sapiens with 7 samples.

Results

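The genes CSMD1, CSMD2, CSMD3, LRP1B, CNTNAP2, CNTNAP5, NRXN3, CNTN4 and CNTN5 encode cell-surface proteins that are best known from neurons, and each spans a very long stretch of the genome. They were chosen by name and placed at their GENCODE 44 positions on hg38, which makes them 9 of 20033 protein-coding genes on the chromosomes and contigs with a domain. Their positions were set against domains of the histone marks H3K9me3 and H3K27me3 in HCT116, a human colorectal carcinoma cell line. Clone 3 and Clone 6 are each a single clonal line of HCT116 that carries a doxycycline-inducible short hairpin RNA against UHRF1, a factor needed for maintenance of DNA methylation. All samples were baseline cells grown without doxycycline, the inducer of the hairpin, for 14 days by their labels or, for the input, by the general description of the treatment. Chromatin immunoprecipitation and sequencing (ChIP-seq) was represented by 2 samples for H3K9me3 in Clone 3, 2 for H3K27me3 in Clone 3, 2 for H3K27me3 in Clone 6 and 1 input of Clone 3. Broad domains found in both replicates, or in both clones, had been kept in 5 sets. These were Clone 3 H3K9me3, Clone 3 H3K27me3, Clone 6 H3K27me3 and the domains of each mark shared by both clones. The positions of the domains were not given per replicate, so the shares and positions given here carry no replicate error and no test was made. Each domain of a clone set also has 2 scores, which may belong to the replicates, but neither their replicate nor their scale is stated. For Clone 6, H3K9me3 is represented only by the clone-shared domains, and its own samples were not analysed here. Sequencing depth cannot be read from domain sets, and without RNA neither the transcription of the genes nor markers of the cell line could be examined.

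H3K9me3 is the histone mark of constitutive heterochromatin, is written by SUV39H and SETDB1 enzymes and is bound by HP1 proteins. H3K27me3 is written by Polycomb repressive complex 2, usually at developmental genes that are silent in the tissue at hand. Both marks can spread over broad domains in cancer cell lines, and long genes of the nervous system are generally little used in intestinal epithelium. The CSMD proteins carry long arrays of CUB and sushi repeats on the cell surface. LRP1B is an endocytic receptor of the low-density lipoprotein receptor family. CNTNAP2 and CNTNAP5 are neurexin-like proteins that work together with contactins along axons, NRXN3 is a presynaptic neurexin, and CNTN4 and CNTN5 are contactins, which are immunoglobulin-type adhesion molecules held on the membrane by a lipid anchor.

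Gene bodies ran from 651.8 kb in CSMD2 to 2305 kb in CNTNAP2. CNTNAP2 was the gene ranked 2 by length among all protein-coding genes, CSMD1 ranked 6, LRP1B 9, NRXN3 13, CNTN5 31, CSMD3 44, CNTN4 83, CNTNAP5 103 and CSMD2 194. The 194 protein-coding genes at least as long as CSMD2 therefore served as the comparison group of long genes, the members included. CSMD1 (ENSG00000183117.20) lies on the minus strand of chromosome 8 from 2935353 to 4994972, and CSMD3 (ENSG00000164796.18) on the minus strand of the same chromosome from 112222928 to 113436939.

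CSMD2 (ENSG00000121904.19) lies on the minus strand of chromosome 1 from 33513998 to 34165842. LRP1B (ENSG00000168702.18) lies on the minus strand of chromosome 2 from 140231423 to 142131016, and CNTNAP5 (ENSG00000155052.15) on the plus strand of that chromosome from 124025287 to 124921219. CNTNAP2 (ENSG00000174469.23) lies on the plus strand of chromosome 7 from 146116002 to 148420998. NRXN3 (ENSG00000021645.20) lies on the plus strand of chromosome 14 from 78170373 to 79868291. CNTN4 (ENSG00000144619.15) lies on the plus strand of chromosome 3 from 2098813 to 3057959, and CNTN5 (ENSG00000149972.12) on the plus strand of chromosome 11 from 99020949 to 100358885.

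The starts of these genes differed in base composition as well as in mark, and 6 promoters are given to show this. They are the bases just upstream of a RefSeq start (RefSeq promoter table, GRCh38.p14), read 5′ to 3′ on the strand of the gene, with every CG dinucleotide (CpG) in capitals, and bases within an annotated exon were left out. CSMD2 at chr1:34165231-34165480 on the minus strand and the first NRXN3 start at chr14:78170123-78170372 on the plus strand lay in H3K27me3 domains. The downstream NRXN3 start at chr14:79279130-79279338, CNTNAP5 at chr2:124025037-124025286, CNTN4 at chr3:2098616-2098812 and CNTN5 at chr11:99020699-99020948, all on the plus strand, lay in H3K9me3 domains.
CSMD2: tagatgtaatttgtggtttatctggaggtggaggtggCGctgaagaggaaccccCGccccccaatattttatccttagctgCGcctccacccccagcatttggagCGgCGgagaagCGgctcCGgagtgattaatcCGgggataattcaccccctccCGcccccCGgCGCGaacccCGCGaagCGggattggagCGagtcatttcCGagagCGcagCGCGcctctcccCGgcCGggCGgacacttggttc
NRXN3, first start: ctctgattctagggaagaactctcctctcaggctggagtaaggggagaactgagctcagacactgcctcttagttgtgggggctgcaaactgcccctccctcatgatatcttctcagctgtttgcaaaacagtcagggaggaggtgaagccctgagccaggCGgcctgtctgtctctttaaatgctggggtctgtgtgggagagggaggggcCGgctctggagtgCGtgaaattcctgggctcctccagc
NRXN3, downstream start: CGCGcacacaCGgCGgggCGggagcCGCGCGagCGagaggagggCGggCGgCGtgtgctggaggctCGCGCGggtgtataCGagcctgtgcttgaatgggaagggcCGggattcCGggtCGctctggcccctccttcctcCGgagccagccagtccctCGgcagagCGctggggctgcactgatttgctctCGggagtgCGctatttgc
CNTNAP5: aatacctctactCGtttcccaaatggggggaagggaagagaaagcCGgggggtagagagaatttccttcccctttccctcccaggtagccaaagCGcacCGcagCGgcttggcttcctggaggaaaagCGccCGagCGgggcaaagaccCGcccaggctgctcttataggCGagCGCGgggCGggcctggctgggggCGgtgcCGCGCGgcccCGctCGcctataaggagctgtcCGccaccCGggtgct
CNTN4: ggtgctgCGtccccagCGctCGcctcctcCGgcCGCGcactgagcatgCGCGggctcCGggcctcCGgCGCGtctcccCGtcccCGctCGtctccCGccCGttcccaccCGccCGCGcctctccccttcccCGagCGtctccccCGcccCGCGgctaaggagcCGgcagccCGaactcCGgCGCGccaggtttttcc
CNTN5: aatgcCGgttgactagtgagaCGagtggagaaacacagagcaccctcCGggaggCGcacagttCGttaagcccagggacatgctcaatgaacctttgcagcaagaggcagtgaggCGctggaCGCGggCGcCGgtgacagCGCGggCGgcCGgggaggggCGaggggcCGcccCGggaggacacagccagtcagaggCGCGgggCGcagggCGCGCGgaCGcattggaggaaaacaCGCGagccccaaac

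The motif searched in them was CG, which reads the same on both strands. In the 250 bases before each start, the CSMD2 promoter shown, that of the canonical transcript, held 23 CpGs, and the one 0.612 kb further upstream, at the start of the gene, held 9 and also lay in H3K27me3. The first NRXN3 promoter held 3, the downstream NRXN3 promoter 24, the CNTNAP5 promoter 21, the CNTN4 promoter 40 and the CNTN5 promoter 26. The corresponding windows before the canonical starts held 18 CpGs in CSMD1, 12 in CNTNAP2, 10 in LRP1B and 5 in CSMD3. Over the canonical starts of all 20033 protein-coding genes the median was 18 CpGs, with quartiles of 7 and 27. Starts with more and with fewer CpGs than this median were found under either mark. CNTN4, whose canonical start had the most CpGs of the 9 genes, and CSMD3, with 5, both started in H3K9me3. The CNTN4 sequence shown, without its exon bases, holds 30 of the 40 CpGs. A further CNTN4 promoter, 793 kb into the gene and also in H3K9me3, held 2. The NRXN3 promoter at 233 kb, in H3K27me3, held 5. The RefSeq table matched 6 of the 9 genes, with 10 promoters, and LRP1B, CSMD1 and CSMD3 had no entry.

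Of the summed length of the 9 gene bodies, 13.0 Mb, 8.93 Mb (68.6%) lay in Clone 3 H3K9me3 domains and 1.10 Mb (8.46%) in Clone 3 H3K27me3 domains. For the 194 long genes the corresponding shares of the summed body were 30.8% and 21.5%. The median share over the members was 84.2% for Clone 3 H3K9me3, whereas the median over the 194 long genes was 0%, as was that over all protein-coding genes. The H3K9me3 domains shared by both clones held 67.8% of the summed body. For H3K27me3 the summed share was 9.05% in Clone 6 and 7.66% in the clone-shared set. H3K9me3 thus covered more of these genes than H3K27me3 in each pair of sets.

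CSMD1, CSMD3 and CNTNAP5 lay in Clone 3 H3K9me3 domains over 100% of their bodies, followed by CNTN4 with 85.2%, CNTN5 with 84.2%, CNTNAP2 with 83.7% and NRXN3 with 52.3%. CSMD2 and LRP1B were at 0% for this mark. Hence 7 of the 9 members had 50% or more of the body in Clone 3 H3K9me3 domains, against 3.42% of all protein-coding genes and 27.8% of the long genes. The same 7 members passed in the clone-shared H3K9me3 set, where the background was 3.29% of all genes and 25.8% of long genes. Only the share of CNTN5 was lower in the clone-shared set, at 76.9%, and the share of every other member was the same in both H3K9me3 sets.

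**Figure D1:**
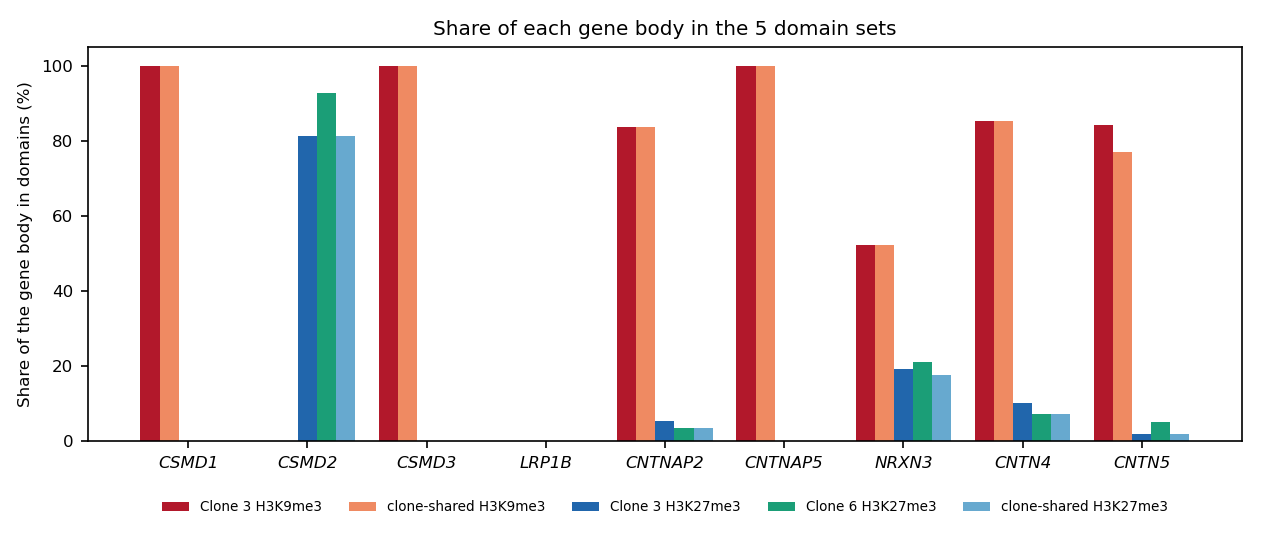
Share of each gene body (%, y axis) that lay in each of the 5 domain sets (bar colours), for the 9 genes (x axis), with no error bars because domains were not given per replicate. H3K9me3 bars stand at 52.3% or above in 7 genes, CSMD2 has H3K27me3 alone, and LRP1B has no bar.

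CSMD2 was the single member with 50% or more of the body in H3K27me3 domains, at 81.3% in Clone 3, 92.6% in Clone 6 and 81.3% in the clone-shared set. The background at this threshold was 6.76%, 7.77% and 5.48% of all protein-coding genes and 21.6%, 17.5% and 15.5% of the long genes, in the same order of sets. NRXN3 had 19.1% of its body in H3K27me3 domains in Clone 3, 21.2% in Clone 6 and 17.5% in the clone-shared set. CNTN4 had 10.2% in Clone 3 and 7.09% in both other sets. CNTNAP2 had 5.42% in Clone 3, 3.47% in Clone 6 and 3.43% in the clone-shared set. CNTN5 had 1.79% in Clone 3, 5.00% in Clone 6 and 1.79% in the clone-shared set. CSMD1, CSMD3, LRP1B and CNTNAP5 had no base in an H3K27me3 domain of any set. The H3K27me3 share was therefore largest in CSMD2, which had no base in either H3K9me3 set. The 3 genes wholly in H3K9me3 had no H3K27me3.

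**Figure D2:**
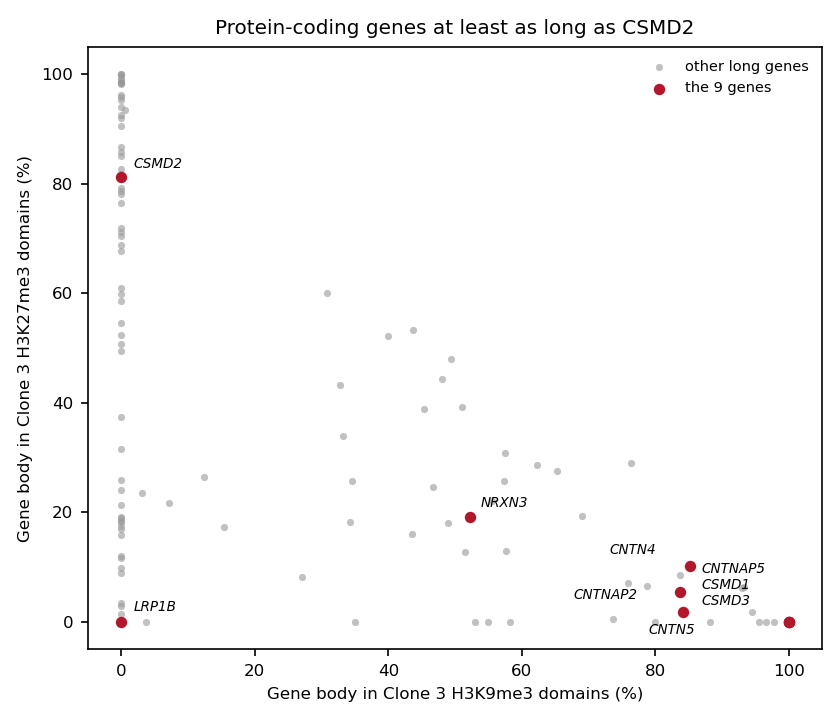
Share of the gene body in Clone 3 H3K9me3 domains (%, x axis) against the share in Clone 3 H3K27me3 domains (%, y axis) for the 194 protein-coding genes at least as long as CSMD2, with the 9 genes in red and the other long genes in grey. CSMD1, CSMD3 and CNTNAP5 coincide at 100% and 0%, CSMD2 stands on the H3K27me3 axis at 81.3%, and LRP1B is at the origin.

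H3K9me3 lay at the start of 6 members, CSMD1, CSMD3, CNTNAP2, CNTNAP5, CNTN4 and CNTN5, in both the Clone 3 and the clone-shared set. In comparison, 3.35% of all protein-coding genes started in a Clone 3 H3K9me3 domain and 3.24% in a clone-shared one. Starts and ends were not counted in the long genes alone, so the contrasts given here do not take gene length into account. The body threshold used above was passed in Clone 3 H3K9me3 by 27.8% of the long genes and 3.42% of all genes. CSMD2 and NRXN3 started in H3K27me3 domains in Clone 3, in Clone 6 and in the clone-shared set, where the background was 6.44%, 7.97% and 5.32% of all genes. At the gene end, H3K9me3 was found in the 4 genes CSMD1, CSMD3, CNTNAP5 and NRXN3, in both H3K9me3 sets, against 3.35% of all genes in Clone 3 and 3.23% in the clone-shared set. H3K27me3 was found at the ends of CNTN4 and CNTN5 in all 3 H3K27me3 sets, against 6.71% of all genes in Clone 3, 7.66% in Clone 6 and 5.4% in the clone-shared set. The ends of CSMD2, LRP1B and CNTNAP2 lay in no domain. In Clone 6 the end of CSMD2 was 3 bases outside a domain, which is less than the 1 kb steps in which domain edges were given.

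Both ends of CSMD1, CSMD3 and CNTNAP5 carried the same mark because a single H3K9me3 domain spanned each gene. The domain over CSMD1 was 3216 kb long, began 1041 kb upstream of the gene start and ended 115 kb beyond the gene end. CNTNAP5 lay within a domain of 4048 kb that extended 1661 kb upstream and 1491 kb downstream of it. CSMD3 lay within a domain of 6127 kb, which ranked 6 by length among the 567 Clone 3 H3K9me3 domains and also held the start of TRPS1, a transcriptional repressor of the GATA family. No other protein-coding gene started in the domains over CSMD1 and CNTNAP5. All 70 canonical exons of CSMD1, all 71 of CSMD3 and all 24 of CNTNAP5 lay in H3K9me3. The closest Clone 3 H3K27me3 domain was 1032 kb from CSMD1, 1625 kb from CNTNAP5 and 2223 kb from CSMD3.

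**Figure D3:**
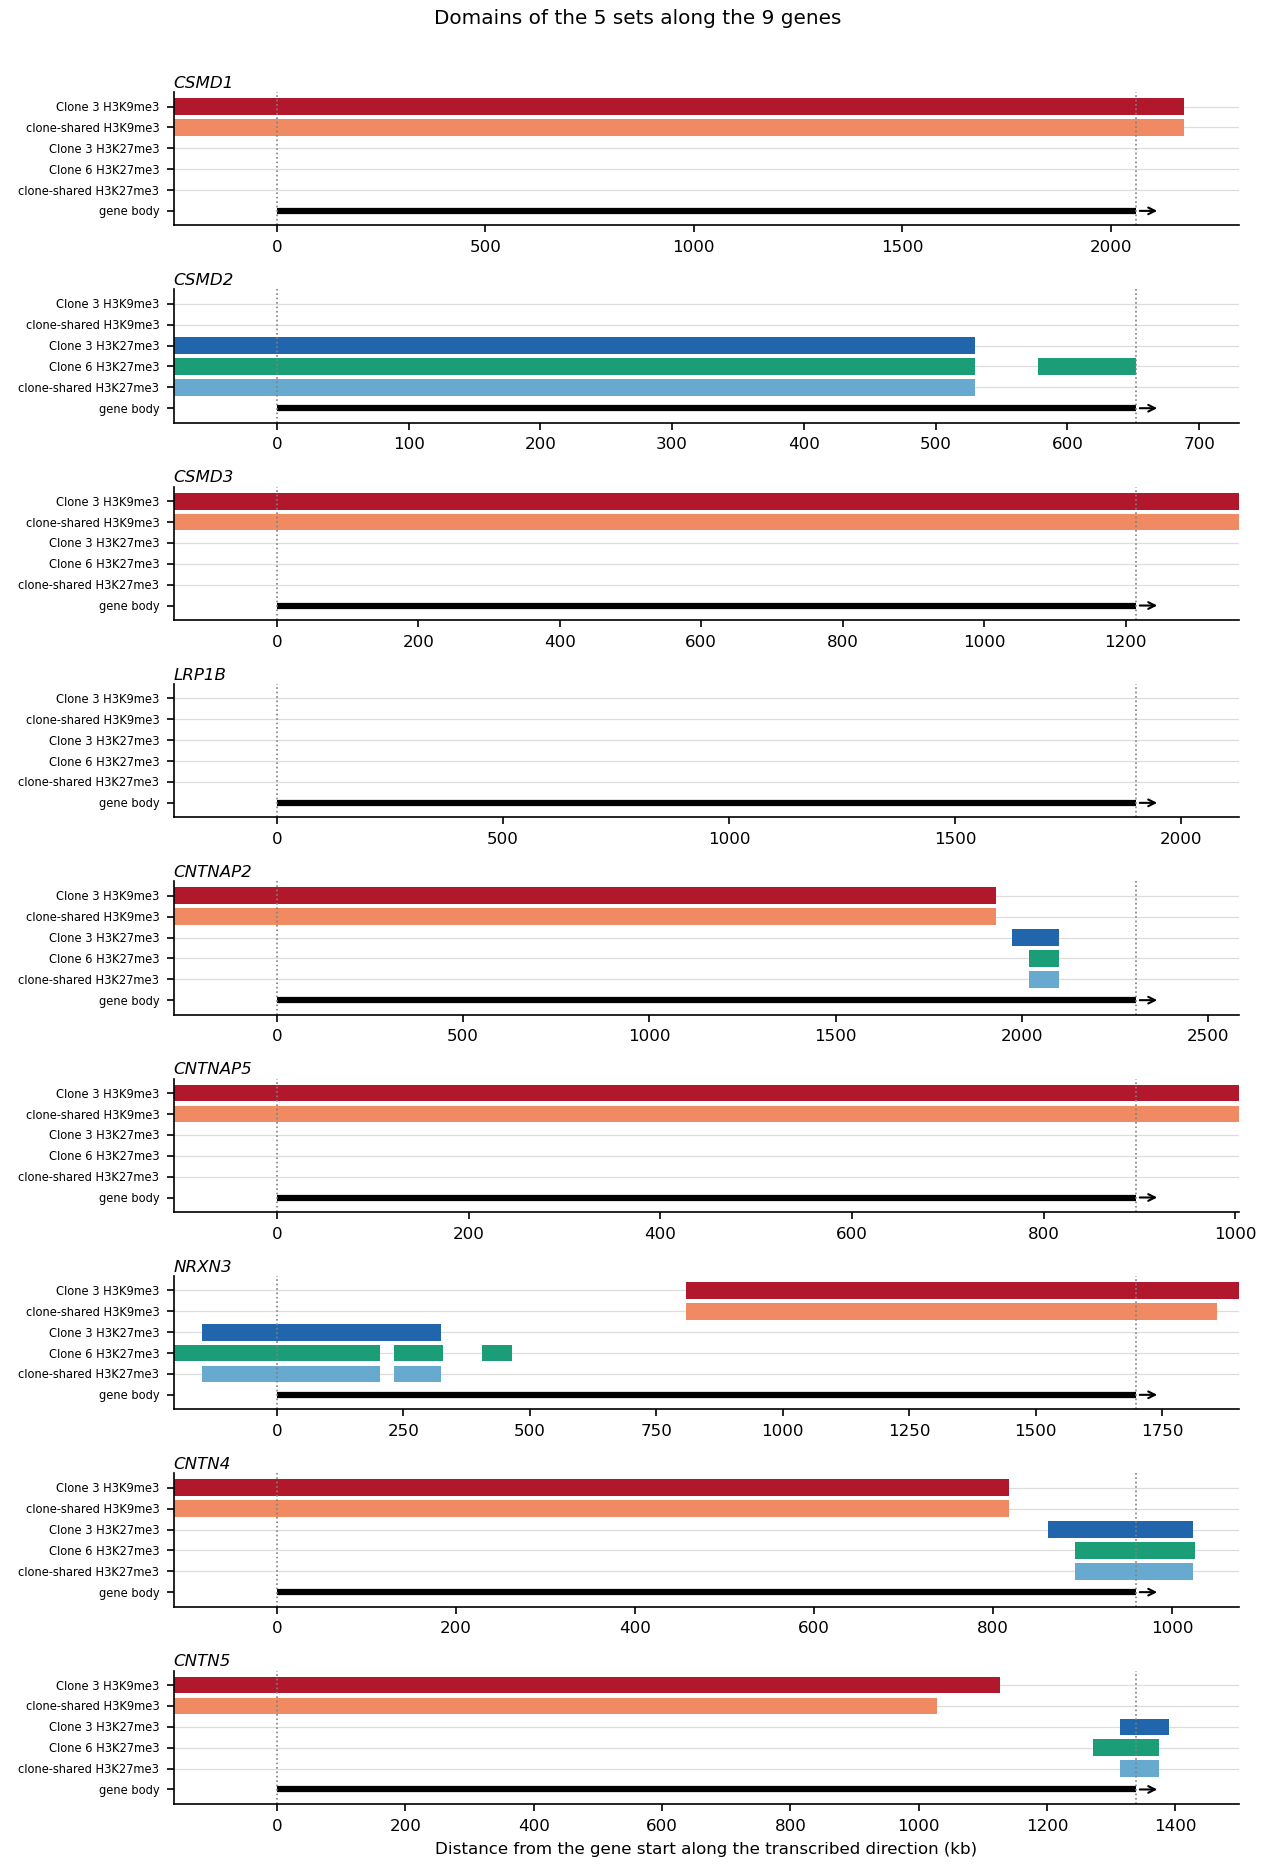
Domains of the 5 sets (coloured bars, 1 row per set) along each of the 9 genes, with the gene body as a black line, dotted lines at its start and end, and distance from the gene start along the transcribed direction in kb on the x axis. Bars that reach the edge of a panel extend beyond it. H3K9me3 ends and H3K27me3 follows within CNTNAP2, CNTN4 and CNTN5, and the order is the opposite in NRXN3.

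A switch of mark, in which a gene passed from domains of one mark into domains of the other along its body, occurred once in each of 4 members, CNTNAP2, NRXN3, CNTN4 and CNTN5. At least 1 switch in Clone 3 was found in 0.374% of all protein-coding genes and in 20.1% of the long genes. Each of the 4 switches was also present when the clone-shared sets were used, and 3 remained when marked stretches of at least 50 kb were required, CNTN5 being lost. In no member did domains of the 2 marks overlap, so every switch passed through an unmarked gap.

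In CNTNAP2, which assembles potassium channels next to the node of Ranvier, H3K9me3 covered the gene from its start to 1930 kb. After a gap of 44 kb, H3K27me3 followed from 1974 to 2099 kb, and the last 206 kb were unmarked. The H3K9me3 part held exons 1 to 15 of the canonical transcript, the H3K27me3 part exons 16 to 18 and the unmarked end exons 19 to 24. Of 4 distinct starts of protein-coding transcripts, 2 lay in H3K9me3, 1 in H3K27me3 and 1 in unmarked sequence, and in Clone 6 the number in H3K27me3 was 0. The H3K9me3 domain had the same edges in the clone-shared set, while the gap widened to 90 kb because the Clone 6 H3K27me3 domain was shorter, at 80 kb against 125 kb in Clone 3.

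In CNTN4 the H3K9me3 part ended at 817 kb, the gap was again 44 kb, and H3K27me3 ran from 861 kb past the end of the gene. Exons 1 to 12 lay in H3K9me3, exon 13 in the gap and exons 14 to 25 in H3K27me3. The 85.2% of the body in H3K9me3 thus held 12 of the 25 exons, and the 10.2% in H3K27me3 held as many. All 8 distinct transcript starts of CNTN4 lay in H3K9me3. The H3K9me3 domain measured 2880 kb, began near the end of the short arm of chromosome 3 at position 36001, and also held the starts of CNTN6, a contactin of the same family, and CHL1, an adhesion molecule of the L1 family. The gap between the marks was 74 kb in the clone-shared sets.

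In CNTN5 the H3K9me3 part ended at 1127 kb and H3K27me3 began at 1314 kb, 187 kb further on and only 23.9 kb before the end of the gene. Exons 1 to 13 lay in H3K9me3, exons 14 to 21 in the gap and exons 22 to 25 in H3K27me3. All 5 distinct transcript starts lay in H3K9me3. The H3K27me3 domain at the end measured 76 kb in Clone 3 and 104 kb in Clone 6, against a median of 58 kb and 78 kb over all domains of this mark in these clones. In the clone-shared sets the H3K9me3 part ended earlier, at 1029 kb, and the gap was 285 kb.

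NRXN3 showed the opposite order. H3K27me3 covered the first 325 kb in Clone 3, an unmarked gap of 485 kb followed, and H3K9me3 ran from 809.6 kb past the end of the gene. Exons 1 to 4 of the canonical transcript lay in H3K27me3, exons 5 to 14 in the gap and exons 15 to 21 in H3K9me3. NRXN3 is transcribed from several promoters, and long forms begin upstream of the short ones. Of its 13 distinct starts of protein-coding transcripts, 5 lay in H3K27me3, 2 in unmarked sequence and 6 in H3K9me3. The RefSeq starts at 0 and 233 kb from the gene start lay in H3K27me3, and the RefSeq start at 1109 kb lay in H3K9me3. The first and the downstream start, whose sequences are given above, thus differed both in mark and in CpG count (3 against 24). In Clone 6, domains of 432 and 96 kb stood in place of the single H3K27me3 domain of Clone 3. A further domain of 60 kb lay within the stretch that was unmarked in Clone 3, from 405.6 kb of the gene. These Clone 6 domains had the same first score, 243.3, but different second scores. Whether each replicate showed the split cannot be read from the domain sets.

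The direction from H3K9me3 to H3K27me3, seen in 3 of the 4 switches here, occurred 24 times among the long genes, and the direction from H3K27me3 to H3K9me3 18 times. Both directions were therefore common in long genes, and no difference between the directions was tested.

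**Figure D4:**
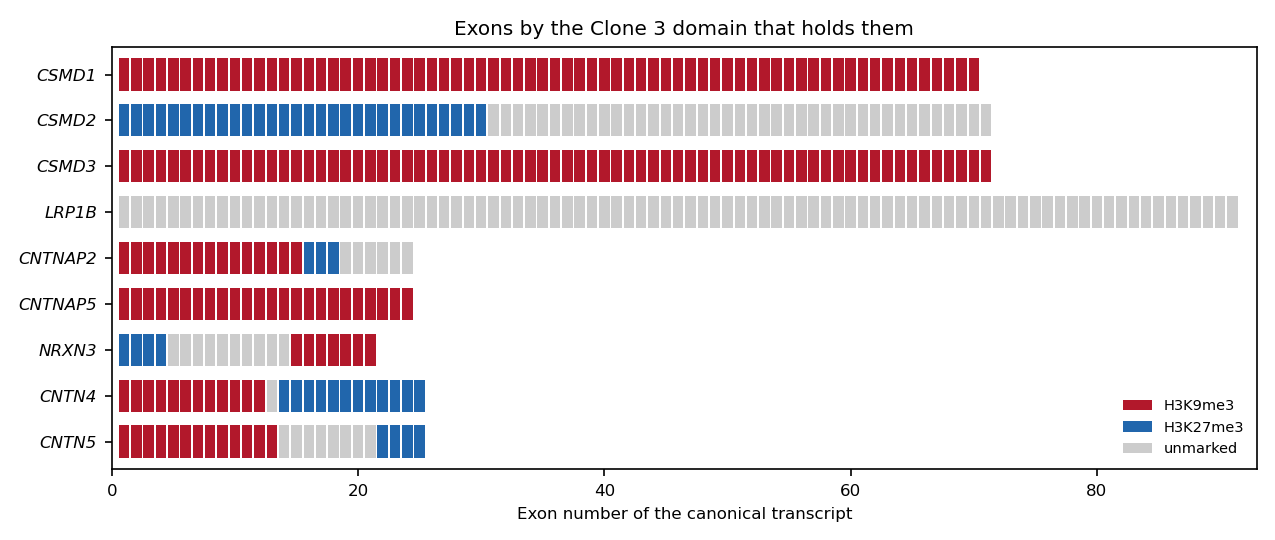
Exons of the canonical transcript (x axis, exon number from the start) of the 9 genes (rows), coloured by the Clone 3 domain in which they lay. CSMD1, CSMD3 and CNTNAP5 are H3K9me3 throughout, exons 1 to 30 of CSMD2 are in H3K27me3, and the 91 exons of LRP1B are unmarked.

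CSMD2 differed from CSMD1 and CSMD3, its closest relatives, in carrying H3K27me3 in place of H3K9me3 in the sets used here. A Clone 3 H3K27me3 domain of 1102 kb, which ranked 27 by length of 2600, began 572 kb upstream of the gene and covered its first 529.8 kb. It also held the starts of HMGB4 and C1orf94. The remaining 122 kb up to the gene end were unmarked in Clone 3 and held exons 31 to 71, so that 18.7% of the body contained 41 of the 71 exons. The corresponding Clone 6 domain was 1106 kb long and stopped at the same position within the gene. A further Clone 6 domain of 74 kb lay in the last part of the gene. Both Clone 6 domains had the same first score, 520.8, but different second scores, and whether each replicate separated them cannot be read here. All 3 distinct transcript starts of CSMD2 lay in H3K27me3 in Clone 6, compared with 2 in Clone 3. The nearest Clone 3 H3K9me3 domain was 6270 kb away.

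LRP1B, with a body of 1899.6 kb and 91 canonical exons, had no base in any of the 5 sets. Its 4 distinct transcript starts and its end were likewise unmarked. The closest domain of any set was a Clone 3 H3K27me3 domain of 344 kb, 980 kb upstream, and the closest Clone 3 H3K9me3 domain was 2700 kb downstream. In the clone-shared sets these distances were 3461 kb for H3K27me3 and 13819 kb for H3K9me3. Among the long genes, 30.4% had no base in any set, so LRP1B was 1 of many in this respect. A gene outside the domains is one without broad enrichment called in both replicates, a domain called in a single replicate would not appear here, and narrow peaks of either mark were not measured.

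Between the clones, the H3K27me3 share of the body was higher in Clone 6 in CSMD2, NRXN3 and CNTN5 and lower in CNTNAP2 and CNTN4. The largest difference was that of CSMD2, at 11.4 percentage points, and over the summed bodies Clone 6 exceeded Clone 3 by 0.59 percentage points. With domains of at least 100 kb alone, the summed difference turned to -1.61 points and that of NRXN3 from 2.06 to -7.13 points, and CSMD2 no longer differed. With gaps of up to 50 kb between domains filled, the summed difference was 1.18 points, that of CSMD2 18.7 points and that of NRXN3 3.71 points. CNTNAP2 and CNTN4 stayed lower and CNTN5 stayed higher in Clone 6 under both alternatives. With domains of at least 100 kb alone, the difference moved from -1.95 to -5.42 points in CNTNAP2 and from 3.21 to 5.00 points in CNTN5. That of CNTN4 stayed at -3.13 points. In contrast, all 9 members had the same mark, or none, at the start and at the end in Clone 3 and in the clone-shared sets, and the members with H3K27me3 at either end were the same in Clone 6.

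CpG density ranged from 5.22 to 10.5 CpGs per kb over the 9 genes, and both extremes were genes wholly in H3K9me3. CSMD1 held 10.5 CpGs per kb, CSMD3 5.22 and CSMD2 9.44. The values were 7.91 in CNTN4, 7.78 in CNTNAP2, 7.03 in CNTNAP5, 6.80 in NRXN3, 6.02 in CNTN5 and 5.68 in LRP1B. The median over the members was 7.03 and over the 194 long genes 6.77. Over the 54 long genes with 50% or more of the body in Clone 3 H3K9me3 it was 6.56. Over the 42 with 50% or more in Clone 3 H3K27me3 it was 7.15, and over the 61 with no base in either Clone 3 set 6.60. Within genes that switched, the H3K27me3 part held more CpGs per kb than the H3K9me3 part in CNTNAP2 (9.14 against 7.18), CNTN4 (9.44 against 7.68) and NRXN3 (7.49 against 6.82), and fewer in CNTN5 (5.57 against 6.12). The unmarked part of CNTNAP2 was the richest of all parts, at 11.7 CpGs per kb. GC content was higher in the H3K27me3 part, and also in the unmarked part, than in the H3K9me3 part of all 4 genes. The H3K27me3 and H3K9me3 parts held 41.4% and 36.7% in CNTNAP2 and 39.6% and 37.7% in CNTN4. In NRXN3 they held 42.6% and 38.4%, and in CNTN5 36.1% and 34.8%. The unmarked part held 42.0% in CNTNAP2, 39.5% in CNTN4, 39.3% in NRXN3 and 36.0% in CNTN5. Whether base composition took part in the placement of the domains was not tested.

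**Figure D5:**
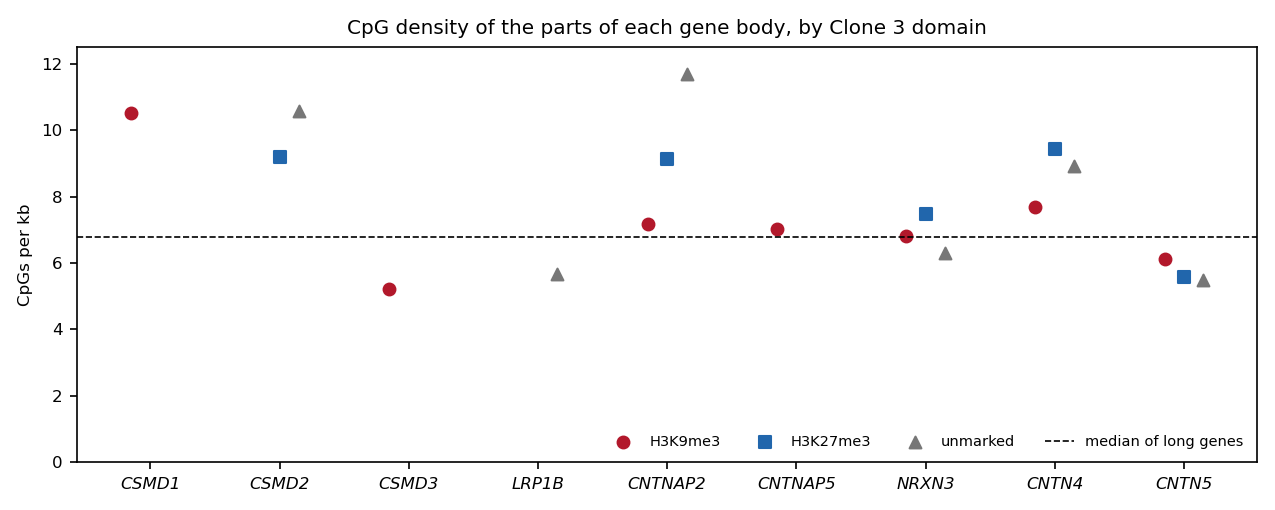
CpGs per kb (y axis) in the parts of each gene body (x axis) that lay in Clone 3 H3K9me3 domains (red circles), Clone 3 H3K27me3 domains (blue squares) or neither (grey triangles), with the median of the 194 long genes as a dashed line. CSMD1 at 10.5 and CSMD3 at 5.22 mark the span of the genes wholly in H3K9me3.

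Close relatives of the members were examined in the same way. Of 12 paralogs, which included other contactins and contactin-associated proteins, 3 had 50% or more of the body in Clone 3 H3K9me3 domains and none did in an H3K27me3 set, against 3.42% of all protein-coding genes for Clone 3 H3K9me3 and 5.48% to 7.77% for the H3K27me3 sets. The 3 were CNTNAP4, CNTN3 and CNTN6, each at 100% in both H3K9me3 sets, and CNTN6 shares its domain with CNTN4. CNTN1, CNTNAP1, CNTNAP3, CNTNAP3B, LRP1 and LRP2 had no base in any set. Of 16 genes for binding partners, 5 had 50% or more in Clone 3 H3K9me3 (3.42% of all protein-coding genes) and 2 in Clone 3 H3K27me3 (6.76%). LRRTM1 and LRRTM4, postsynaptic ligands of neurexins, CBLN2 and CBLN4, secreted cerebellins that bridge neurexins to receptors, and CHL1 were at 100% for H3K9me3. CBLN1, a further cerebellin, and NFASC, the neurofascin of the node of Ranvier, were at 100% for H3K27me3 in all 3 sets. None of the neuroligin genes NLGN1, NLGN2 and NLGN3 had a base in any set, and NLGN4X had 11.3% in H3K9me3. The median share was 0% for both lists in every set, against 84.2% for the members in Clone 3 H3K9me3.

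Among the 194 long genes, likeness to each member was measured as the sum over the 5 sets of the absolute difference in body share. CSMD1, CSMD3 and CNTNAP5 were each at a distance of 0 from 24 other genes with 100% in both H3K9me3 sets, 2 of which were members. LRP1B was at a distance of 0 from 58 other genes without a domain. The nearest gene to CSMD2 was NKAIN2, at 6.19 percentage points in all. GPC6, which encodes a glypican, was the nearest to both CNTNAP2 (9.89) and CNTN4 (9.23). RALYL was nearest to NRXN3 (12.3) and CTNNA2, an alpha-catenin of neurons, to CNTN5 (13.2).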

How the data were processed

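The data are ChIP-seq profiles of both marks in baseline HCT116 shUHRF1 cells, and samples were grouped by clone and mark from their labels. The authors trimmed reads (Trim Galore 0.5.0), aligned them to hg38 (Bowtie2 2.3.5, versions from the submitters' processing notes), removed duplicates and called domains with Enriched Domain Detector at default settings. They deposited 5 sets of domains found in both replicates or in both clones, with edges at whole kb. Each deposited clone set lists every domain with 2 scores (scale not given in the sources used here). A score was used only to rank domains or to compare domains within a gene. The paper states a minimum sequencing depth, but the depth of each library cannot be read from the domain sets.

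A gene body ran from the first to the last base of the gene in GENCODE 44, and its share was the bases in the union of a set. Start and end were the first and last transcribed bases. A switch was a change between marks of successive marked stretches. Windows upstream of starts held 250 bases. All comparisons are descriptions without tests. Values for all 9 members are given, paralogs and partners are named where 50% or more of the body was in a set or to describe the rest (1 is not reported here), and the gene of nearest pattern is named unless more than 1 tied. The members, lists and rules were chosen with earlier results of these data known. As alternatives, the values were recomputed with domains of at least 100 kb, gaps of up to 50 kb filled, the canonical transcript as the gene, a window of 10 kb at the start, thresholds of 25% and 75% of the body, the upper 50% of domains by the lower score, stretches of at least 50 kb and the clone-shared sets. The interval routines were tested on simulated data. Python 3.11.15, numpy 2.4.6, pyfaidx 0.9.0.4 and matplotlib 3.10.9 were used.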

Additional observations from a re-analysis of the deposited data

How the results depend on the processing

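The counts of members with a start, an end or 50% or more of the body in a set, and of members with a switch, were recomputed 62 times, and 60 stayed within 1.5 times the reported count. With domains of at least 100 kb, the members with their end in H3K27me3 fell to 1 in Clone 3 and 1 in the clone-shared set, since the domain at the end of CNTN5 is shorter than that. The same restriction turned the Clone 6 minus Clone 3 difference in the summed H3K27me3 share to -1.61 percentage points and that of NRXN3 to -7.13, by construction through the loss of short domains. With stretches of at least 50 kb, CNTN5 no longer counted as switched, which left 3 of 9 members. A threshold of 75% of the body left 6 members in H3K9me3, since NRXN3 fell below it. Of 135 recomputed body shares, 127 stayed within a 95% Wilson interval on whole-kb steps, which treats neighbouring kb as independent and is therefore too narrow. The 8 others were H3K27me3 shares of CSMD2, CNTNAP2, NRXN3 and CNTN5. Many of the 127 could not move by construction, since they belong to genes far from any domain of a set or wholly inside a long domain. The count of 127 is therefore not a measure of stability. An end within 10 kb of a domain and switches among the upper 50% of domains by score were alternatives chosen after seeing the data. They gave 3 members with an end in Clone 6 H3K27me3, CSMD2 added, and 4 members with a switch. No paired analysis was possible because the domain sets used here combine the replicates.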
